A study of Mus musculus with 36 samples.

Results

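The genes described here encode 9 enzymes that make, recycle or clear the deoxynucleotides from which DNA is built: Tyms, Rrm1, Rrm2, Rrm2b, Tk1, Dut, Dck, Samhd1 and Dctpp1. They were listed by symbol with no cut on value, though with earlier results of these data known. All 9 were found among the 12762 genes of the deposited table. The series is an mRNA-seq time course in B3, a mouse pre-B lymphocyte line, with 36 libraries in 12 groups of 3. Ikaros cells carried an MSCV retroviral vector, HA-Ikaros-ERt2-IRES-GFP, in which tagged Ikaros, a zinc finger transcription factor of lymphocytes, is fused to the estrogen receptor part ERt2, which keeps it out of the nucleus until 4-hydroxytamoxifen (4-OHT) is given. Control cells carried the same kind of vector with ERt2-IRES-GFP and no Ikaros. Both lines were GFP-sorted pools of transduced B3 cells, were collected at 0, 2, 6, 12, 18 and 24 h, and keep the Ikzf1 gene of B3 itself. At 2 to 24 h both lines had 0.5 uM 4-OHT, so the drug is shared by the 2 arms. The labels list the drug for 0 h too, whereas the study says in its methods that 0 h cultures had no drug and were grown on separate occasions. The 3 replicates of a group were culture batches, numbered 1, 2 and 4 at 0 h and 1, 3 and 4 at the later times, and values below are always given in that order.

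The 9 genes diverged, some from 2 or 6 h on and most by 18 to 24 h. At 24 h after 4-OHT, 6 of the 9 genes were lower in Ikaros than in control cells, led by Tyms (7.84-fold lower), Dctpp1 (4.49-fold lower) and Tk1 (3.12-fold lower). Rrm2b and Samhd1 were higher, 3.41-fold and 2.44-fold. Dck did not pass the test. Of all genes, 62.9% passed it at 24 h, in either direction.

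Ribonucleotide reductase turns ribonucleotides into deoxynucleotides with a large subunit, Rrm1, and a small subunit, which is Rrm2 in dividing cells or Rrm2b, a p53 target known from resting and damaged cells. Thymidylate is made by Tyms, which methylates dUMP with a folate cofactor, and Dut supplies dUMP by splitting dUTP, which also keeps uracil out of DNA. Tk1 and Dck return thymidine and deoxycytidine to the pool by phosphorylation. Samhd1 breaks deoxynucleotide triphosphates down to nucleosides, and Dctpp1 removes dCTP and modified forms of it. Rrm2, Tyms and Tk1 are textbook S-phase genes, and pre-B cells divide before they stop to rearrange their light chain genes.

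The promoters of the 2 members furthest below control cells at 24 h and of the reductase subunits are shown, as the genes on which the comparisons below turn. RefSeq promoters on GRCm38.p6, the patch release of the mm10 assembly, run from 250 bases before to 50 bases after each start site and were held for 8 of the 9 genes, all but Rrm2b. Capitals mark TGGGAA, a core word of the Ikaros site (read TTCCCA on the opposite strand), or CCAAT, the CCAAT box (read ATTGG on the opposite strand). No 2 marked words overlapped in these promoters. The promoters that were held but are not shown had none of these words. Each sequence is written 5′ to 3′ in the direction of its gene.
Tyms, chr5:30073576-30073875, reverse strand: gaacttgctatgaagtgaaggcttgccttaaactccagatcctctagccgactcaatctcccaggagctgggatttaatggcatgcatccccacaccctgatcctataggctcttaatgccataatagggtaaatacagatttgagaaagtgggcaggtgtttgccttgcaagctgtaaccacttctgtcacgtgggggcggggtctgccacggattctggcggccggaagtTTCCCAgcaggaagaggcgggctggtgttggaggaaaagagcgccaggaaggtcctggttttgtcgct
Dctpp1, chr7:127260618-127260917, reverse strand: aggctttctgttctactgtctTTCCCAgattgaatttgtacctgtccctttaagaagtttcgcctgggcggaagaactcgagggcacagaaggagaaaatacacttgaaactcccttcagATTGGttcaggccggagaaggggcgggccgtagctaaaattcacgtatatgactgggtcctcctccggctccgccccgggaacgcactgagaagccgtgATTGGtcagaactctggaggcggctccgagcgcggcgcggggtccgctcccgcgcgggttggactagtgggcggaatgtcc
Rrm1, chr7:102441445-102441744, forward strand: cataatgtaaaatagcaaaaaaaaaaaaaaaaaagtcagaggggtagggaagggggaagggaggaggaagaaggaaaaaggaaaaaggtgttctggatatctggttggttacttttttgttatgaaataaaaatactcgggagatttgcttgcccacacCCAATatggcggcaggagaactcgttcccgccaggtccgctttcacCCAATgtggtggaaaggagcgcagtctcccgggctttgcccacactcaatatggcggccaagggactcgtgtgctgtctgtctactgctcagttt
Rrm2, chr12:24708004-24708303, forward strand: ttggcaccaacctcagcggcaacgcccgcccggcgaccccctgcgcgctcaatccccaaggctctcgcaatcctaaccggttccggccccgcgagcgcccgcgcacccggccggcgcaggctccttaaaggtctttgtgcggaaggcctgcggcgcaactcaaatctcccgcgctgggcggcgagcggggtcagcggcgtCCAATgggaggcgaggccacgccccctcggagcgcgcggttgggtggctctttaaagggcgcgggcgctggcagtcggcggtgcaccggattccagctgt
TGGGAA occurred in 2 of the 8 promoters, at 18 bases before the start in Tyms and at 229 bases before it in Dctpp1, both on the opposite strand. Of all 32851 promoters of the same length, 25.6% held it on either strand. CCAAT occurred in 3 of the 8, against 37.4% of all promoters: at 91 and 45 bases before the start in Rrm1, at 50 bases in Rrm2, and on the opposite strand at 130 and 31 bases in Dctpp1. The 4 E2F words TTTCCCGC, TTTGGCGC, TTTCGCGC and TTTGCCGC were in 0 of the 8 and in 2.26% of all promoters. A match is only a match of letters, and the lack of one says only that these letters were not in this window.

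The values are the log2 expression levels that the authors deposited after correction for GC content, gene length and library preparation, with a constant added, so that levels are relative and only differences between libraries are read. A difference is Ikaros minus control on the log2 scale with its standard error (SE), tested with limma over all genes, and a gene is called at a Benjamini-Hochberg adjusted p under 0.05. Library medians lay between 11.70 and 11.73, and 8 of the 9 genes lay above the median gene in mean level, with Rrm2b at the 37.6th percentile. Ikzf1 checked the labels: it lay at 13.95 to 14.85 in the 18 control libraries and at 19.63 to 20.93 in the 18 Ikaros libraries, the 0 h libraries included. All 10 pre-B markers were measured, with Cd79a at the 99.5th percentile. Of the markers of other blood cells, 0 of 5 T cell, 2 of 6 myeloid and 2 of 5 erythroid genes were in the table. The mean level of the 2 myeloid markers was 6.36 in control and 7.01 in Ikaros cells at 24 h and ranged from 5.51 to 7.62 over the groups, and their part in the results was not tested. The libraries are bulk samples, in which fewer cells of a type and less RNA per cell cannot be told apart.

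Calls among the 9 genes rose in number with time. At 0 h 1 gene was called, where 8.33% of all genes were, and at 2 h 3 genes were called against 19.1%. At 6, 12, 18 and 24 h there were 3, 4, 7 and 8, against 37.3%, 45.8%, 58.2% and 62.9% of all genes. The called genes were all lower in Ikaros cells up to 6 h, then 2 lower and 2 higher at 12 h, then 5 and 2 at 18 h, and finally 6 and 2 at 24 h. From 0 to 24 h the median difference of the 9 genes was −0.09, −0.34, −0.15, −0.05, −0.36 and −1.02, beside −0.0055 for all genes at 24 h. The 3 Ikaros and 3 control libraries did not overlap for 3, 3, 4, 4, 7 and 8 of the genes at the 6 times, where 32.7%, 27.9%, 41.0%, 51.0%, 64.5% and 71.0% of all genes were separated. The share of members called was near that of all genes at 0, 6 and 12 h. The share of members separated was near that of all genes at 0, 2, 6 and 12 h.

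**Figure D1:**
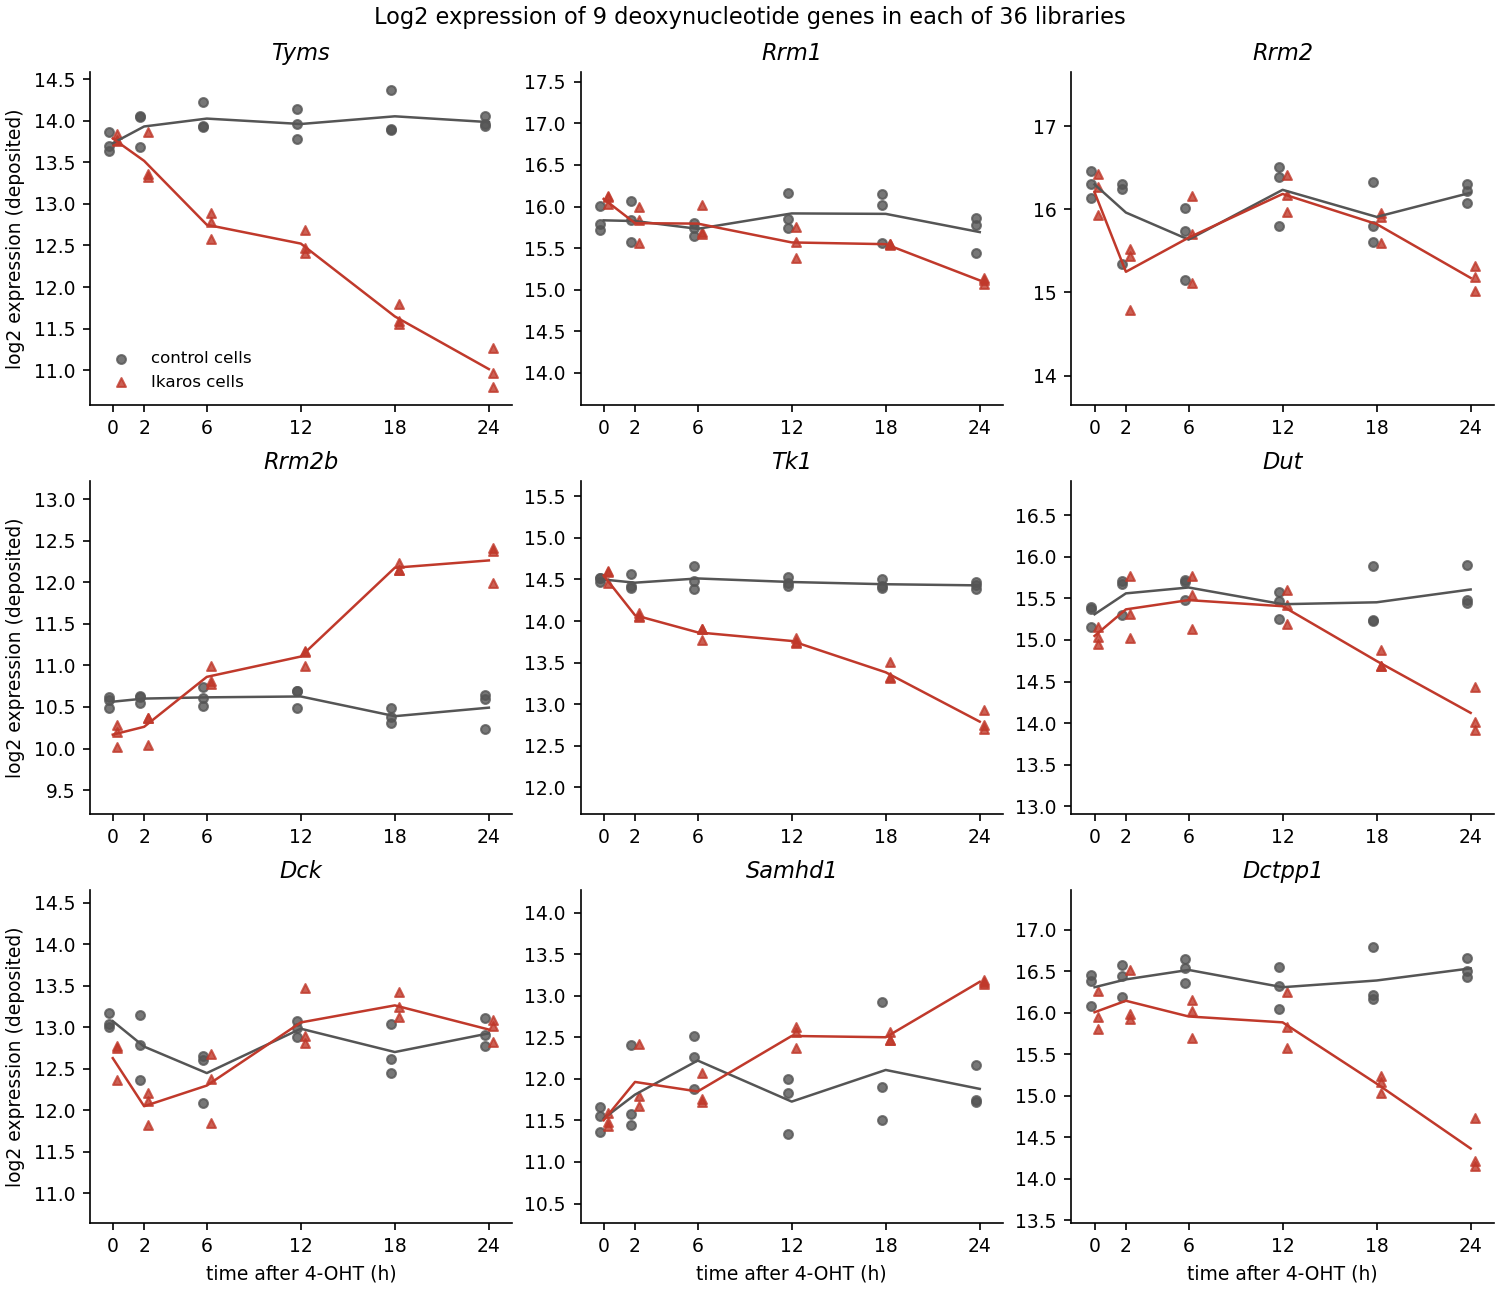
Log2 expression (vertical axis, deposited scale, each panel spanning 4 log2 units) against hours after 4-OHT for each of the 9 genes, with grey circles for control and red triangles for Ikaros libraries (3 per group, drawn slightly apart) and lines through the group means. Tyms, Rrm1, Rrm2, Tk1, Dut and Dctpp1 end below all control libraries at 24 h, and Rrm2b and Samhd1 end above them.

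Since the lines could differ before the drug, the change of the Ikaros minus control difference from 0 h was tested too. From 0 to 2 h 1 of the 9 genes changed (3.10% of all genes), from 0 to 6 h 3 (15.9%), from 0 to 12 h 4 (29.7%), from 0 to 18 h 6 (43.0%) and from 0 to 24 h 8 (48.4%). Over all 5 changes together, limma's F test called 8 of the 9 genes, all but Rrm2 (adjusted p 0.0812), against 59.8% of all genes. From 2 to 24 h, where both ends had the drug, 8 of 9 were called against 47.3%, again all but Rrm2. The same F test within control cells called 0 of the 9 genes and 1.69% of all genes.

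Thymidylate synthase was the member with the largest difference at 24 h. Tyms (chr5:30058202-30073617, reverse strand, mm10) lay at 13.69, 13.87 and 13.63 in control cells and at 13.84, 13.77 and 13.75 in Ikaros cells at 0 h. Control cells stayed between 13.63 and 14.37 in all 18 libraries. In Ikaros cells the libraries read 13.32, 13.36 and 13.87 at 2 h, 12.78, 12.89 and 12.57 at 6 h, and then 12.42, 12.47 and 12.69 at 12 h. They then read 11.59, 11.80 and 11.55 at 18 h and 10.97, 11.27 and 10.80 at 24 h. The lines overlapped at 0 and 2 h and were apart at every later time. The difference was −0.41 (SE 0.15, adjusted p 0.0588) at 2 h, −1.28, −1.44 and −2.41 at 6, 12 and 18 h, and −2.97 (adjusted p 4.3e-15) at 24 h. Within batches 1, 3 and 4 it was −3.09, −2.66 and −3.16 at 24 h. In Ikaros cells Tyms fell by 0.77 from 2 to 6 h, by 0.88 from 12 to 18 h and by 0.63 from 18 to 24 h, while the step of −0.23 from 6 to 12 h did not pass (adjusted p 0.31). Without replicate 1 or without replicate 2 the last step was no longer called (adjusted p 0.224 and 0.211), and without replicate 3 the 2 h difference was called (−0.53, adjusted p 0.016).

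Thymidine kinase of the salvage route was lower from 2 h on and had the smallest error of the members. Tk1 (chr11:117815526-117826092, reverse strand) read 14.47, 14.51 and 14.51 in control and 14.60, 14.46 and 14.59 in Ikaros cells at 0 h. Ikaros cells read 14.05, 14.10 and 14.06 at 2 h against 14.57, 14.39 and 14.42 in control cells, with no overlap. The Ikaros libraries were at 13.91, 13.90 and 13.78 at 6 h, then at 13.75, 13.79 and 13.74 at 12 h, and then at 13.33, 13.50 and 13.31 at 18 h. At 24 h they read 12.74, 12.93 and 12.70 against 14.44, 14.38 and 14.47. Every Ikaros library from 2 h on was below every control library of any time. The difference was −0.39 (SE 0.08, adjusted p 0.00053) at 2 h, −0.65, −0.71 and −1.06 at 6, 12 and 18 h, and −1.64 (adjusted p 6.5e-16) at 24 h. Tk1 was also the 1 member whose difference had changed from 0 to 2 h, by −0.44 (SE 0.11, adjusted p 0.0201). Without replicate 1 the 2 h difference was −0.33 (adjusted p 0.0831), and the change from 0 to 2 h was called in none of the 3 fits that left out a replicate number. Tk1 overlaps Afmid on the opposite strand, and Afmid was 0.72 higher in Ikaros cells at 24 h (SE 0.20, adjusted p 0.0027). The libraries were stranded, but the strand setting of the counting was not given in the sources used here.

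The dUTPase gene changed late. Dut (chr2:125247190-125258608, forward strand) overlapped between the lines from 2 to 12 h, with differences between −0.19 and −0.02. At 18 h it read 15.24, 15.23 and 15.89 in control and 14.68, 14.87 and 14.68 in Ikaros cells. At 24 h control cells read 15.48, 15.44 and 15.90 and Ikaros cells 14.02, 14.43 and 13.92, more than 1 log2 unit below. The difference was −0.71 (SE 0.19, adjusted p 0.00297) at 18 h and −1.48 (SE 0.19, adjusted p 2.2e-07) at 24 h. Within batches 1, 3 and 4 it was −1.46, −1.01 and −1.99 at 24 h. Without replicate 3 the 18 h call was lost (−0.46, adjusted p 0.062). The fall of 0.66 in Ikaros cells from 12 to 18 h (adjusted p 0.0141) was called in none of the 3 fits that left out a replicate number.

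The subunits of ribonucleotide reductase moved apart. Rrm1 (chr7:102441695-102469771, forward strand), the large subunit, had the smallest difference of the members called at 24 h. It read 15.79, 15.71 and 16.00 in control and 16.03, 16.11 and 16.13 in Ikaros cells at 0 h, where the Ikaros libraries were the higher ones. At 24 h control cells read 15.86, 15.77 and 15.44 and Ikaros cells 15.07, 15.14 and 15.12, so the order had turned. The difference was 0.26 (SE 0.15, adjusted p 0.382) at 0 h, and −0.03 and 0.06 at 2 and 6 h. At 12, 18 and 24 h it was −0.35 (adjusted p 0.0601), −0.36 (adjusted p 0.0403) and −0.58 (adjusted p 0.00155). With the batch as a replicate block the 12 h difference was called (adjusted p 0.0293). Without replicate 2 the 24 h difference was −0.56 (adjusted p 0.0699), and at 18 h the call was lost without replicate 1 (adjusted p 0.248) or replicate 2 (adjusted p 0.321).

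Rrm2 (chr12:24708241-24714146, forward strand), the small subunit of dividing cells, was not called before 24 h. At 2 h it read 16.24, 16.30 and 15.34 in control and 15.52, 15.44 and 14.78 in Ikaros cells. The batch 4 library was the lowest of its group in both lines, and the lines overlapped although each Ikaros library was below the control library of its batch. The 2 h difference was −0.71 (SE 0.27, adjusted p 0.0687), and with the batch as a replicate block it was called (adjusted p 0.0124). From 6 to 18 h the differences were 0.02, −0.05 and −0.09. At 24 h control cells read 16.30, 16.22 and 16.08 and Ikaros cells 15.19, 15.31 and 15.02, with no overlap and a difference of −1.02 (SE 0.27, adjusted p 0.00196). The differences within batches 1, 3 and 4 were −1.11, −0.91 and −1.05. The change from 0 to 24 h was −0.93 (SE 0.39, adjusted p 0.0483), and it was not called without replicate 1 (−0.86, adjusted p 0.188) or replicate 2 (−1.04, adjusted p 0.19).

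Rrm2b (chr15:37923952-37961318, reverse strand), the alternative small subunit, was the member that rose most. It was slightly lower in Ikaros cells before the drug, at 10.20, 10.01 and 10.29 against 10.58, 10.49 and 10.62. At 2 h the Ikaros libraries read 10.37, 10.36 and 10.05 and at 6 h 10.81, 10.99 and 10.78, having crossed the control libraries (10.74, 10.51 and 10.60). They read 11.16, 10.99 and 11.17 at 12 h, 12.15, 12.15 and 12.23 at 18 h, and finally 12.42, 11.99 and 12.38 at 24 h. Control cells stayed between 10.24 and 10.74 throughout. At 0, 2 and 6 h the difference was −0.40 (SE 0.12, adjusted p 0.0301), −0.34 (adjusted p 0.0405) and 0.25 (adjusted p 0.098). At 12, 18 and 24 h it was 0.48 (adjusted p 0.00128), 1.79 (adjusted p 7.2e-13) and 1.77 (adjusted p 4.9e-13). In Ikaros cells it rose by 0.60 from 2 to 6 h and by 1.07 from 12 to 18 h, and the step of 0.09 from 18 to 24 h did not pass (adjusted p 0.793). The calls at 0 and 2 h were each lost in all 3 fits that left out a replicate number, with adjusted p from 0.0965 to 0.329 at 0 h and from 0.115 to 0.337 at 2 h. Without replicate 1 the 12 h difference was 0.39 (adjusted p 0.06). A processed pseudogene, Gm3362, lies within the span of Rrm2b on the same strand and was itself 1.65 higher in Ikaros cells at 24 h (SE 0.55, adjusted p 0.011), so the split of reads between them is uncertain.

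The balance of the small subunits was followed within each library as Rrm2 minus Rrm2b, which cancels library scaling. At 0 h it was 5.72, 5.65 and 5.84 in control and 6.07, 5.92 and 6.13 in Ikaros cells. At 18 h it was 5.94, 5.49 and 5.12 in control and 3.81, 3.76 and 3.37 in Ikaros cells, and at 24 h 6.06, 5.58 and 5.49 against 2.77, 3.32 and 2.64. The values did not overlap at either of the late times. At 24 h the mean was 2.91 ± 0.36 (SD, n = 3) in Ikaros and 5.71 ± 0.31 (SD, n = 3) in control cells, a difference of −2.80 that makes the Rrm2 to Rrm2b ratio 6.95-fold lower. An exact two-sided permutation test gave p = 0.1, the smallest that 3 against 3 libraries allow. Within batches the difference ran from −3.29 to −2.26.

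**Figure D2:**
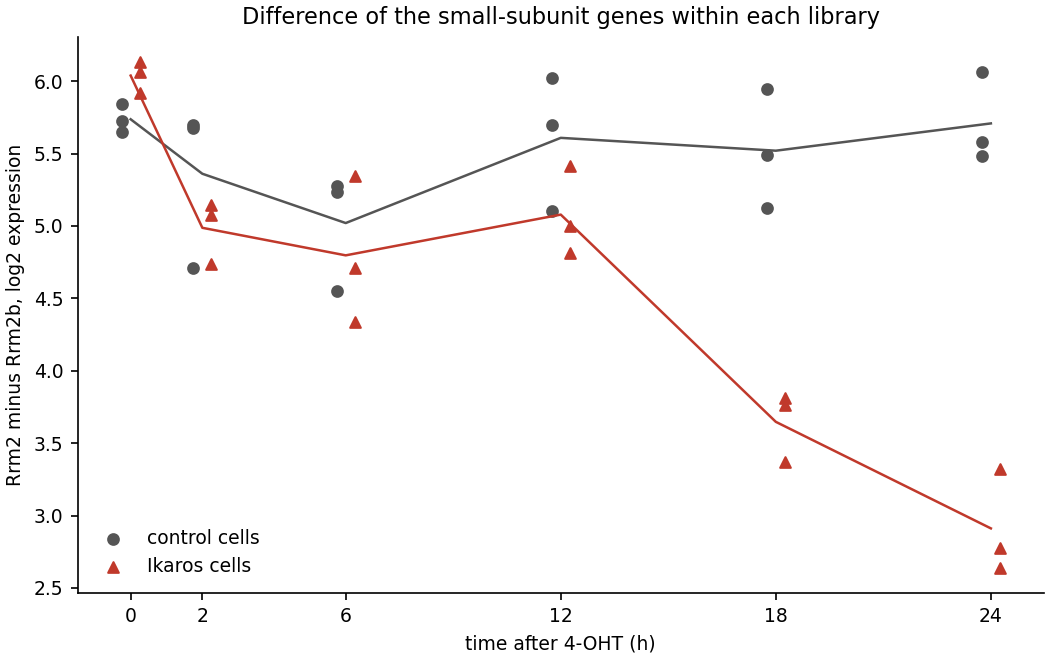
Rrm2 minus Rrm2b in log2 units within each library (vertical axis) against hours after 4-OHT, with grey circles for control and red triangles for Ikaros libraries, 3 per group, and lines through the group means. The Ikaros libraries lie between 2.64 and 3.32 at 24 h, and the control libraries between 5.49 and 6.06.

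Deoxycytidine kinase was the member without a lasting difference. Dck (chr5:88764996-88783281, forward strand) read 12.75, 12.37 and 12.77 in Ikaros cells at 0 h, all below the control libraries, of which the highest read 13.18, with a difference of −0.45 (SE 0.21, adjusted p 0.245). It read 13.15, 12.79 and 12.36 in control and 12.11, 12.21 and 11.83 in Ikaros cells at 2 h, a difference of −0.72 (SE 0.21, adjusted p 0.0166), while its change from 0 to 2 h of −0.27 did not pass (adjusted p 0.805). At 18 h the order was the opposite, with 13.04, 12.62 and 12.45 in control and 13.24, 13.12 and 13.42 in Ikaros cells and a difference of 0.56 (adjusted p 0.0243). At 24 h control cells read 12.90, 13.11 and 12.77 and Ikaros cells 13.01, 12.82 and 13.08, which overlapped, and the difference was 0.05 (SE 0.21, adjusted p 0.863). In Ikaros cells Dck rose by 0.76 from 6 to 12 h (adjusted p 0.0116). Control cells rose too, from a mean of 12.45 to 12.98. The Ikaros minus control difference was −0.15 at 6 h and 0.08 at 12 h, neither called. Of these calls, that at 2 h was lost without replicate 1 (adjusted p 0.264) or replicate 2 (0.166), that at 18 h without replicate 2 (0.135) or replicate 3 (0.0766), and that from 6 to 12 h without replicate 2 (0.0942) or replicate 3 (0.201).

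Of Samhd1 and Dctpp1, which clear triphosphates as Dut does for dUTP, the first ended above control cells at 24 h and the second below. Samhd1 (chr2:157097533-157135265, reverse strand) read 11.66, 11.55 and 11.36 in control and 11.48, 11.59 and 11.43 in Ikaros cells at 0 h, with overlap. The lines also overlapped at 2 h (difference 0.15, adjusted p 0.755) and at 6 h (−0.37, adjusted p 0.286). The mean of control cells at 6 h was 0.70 above that at 0 h. At 12 h control cells read 11.34, 11.84 and 12.00 and Ikaros cells 12.37, 12.62 and 12.56, a difference of 0.79 (SE 0.27, adjusted p 0.0166). At 18 h the control libraries spread over 11.50, 11.90 and 12.92, with the batch 4 library above all Ikaros libraries (12.47, 12.56 and 12.47), and the difference was 0.39 (adjusted p 0.208). Without replicate 3, which leaves that library out, it was 0.82 (adjusted p 0.00126). At 24 h control cells read 11.73, 11.74 and 12.17 and Ikaros cells 13.19, 13.14 and 13.17, a difference of 1.29 (SE 0.27, adjusted p 0.00014) and of 1.47, 1.39 and 1.00 within batches 1, 3 and 4. The 12 h call was lost without replicate 1 (0.67, adjusted p 0.135) or replicate 2 (0.79, adjusted p 0.156), and the change of 1.31 from 0 to 24 h without replicate 1 (1.14, adjusted p 0.0744) or replicate 2 (1.29, adjusted p 0.101).

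Dctpp1 (chr7:127256959-127260709, reverse strand) lay second furthest below control cells at 24 h. At 0 h it read 16.08, 16.46 and 16.38 in control and 15.94, 15.81 and 16.26 in Ikaros cells, and control cells stayed between 16.05 and 16.79 at all times. At 6 h the Ikaros libraries read 15.69, 16.02 and 16.15, just below control cells at 16.54, 16.36 and 16.65, with a difference of −0.56 (SE 0.20, adjusted p 0.0294). They read 15.03, 15.17 and 15.24 at 18 h and 14.15, 14.73 and 14.21 at 24 h. Both late times were clear of every control library. The difference was −0.42 (adjusted p 0.0871) at 12 h, −1.24 (adjusted p 6.8e-06) at 18 h and finally −2.17 (SE 0.20, adjusted p 4.2e-10) at 24 h, where it was −2.28, −1.77 and −2.45 within batches 1, 3 and 4. With the batch as a replicate block the 12 h difference was called (adjusted p 0.0299). The 6 h call was lost without replicate 1 (−0.42, adjusted p 0.319) or replicate 2 (−0.67, adjusted p 0.0731). In Ikaros cells Dctpp1 fell by 0.74 from 12 to 18 h and by 0.78 from 18 to 24 h. The first of these steps was not called without replicate 1 (−0.71, adjusted p 0.104), and the last was called in none of the 3 fits that left out a replicate number (adjusted p 0.0503 to 0.305).

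**Figure D3:**
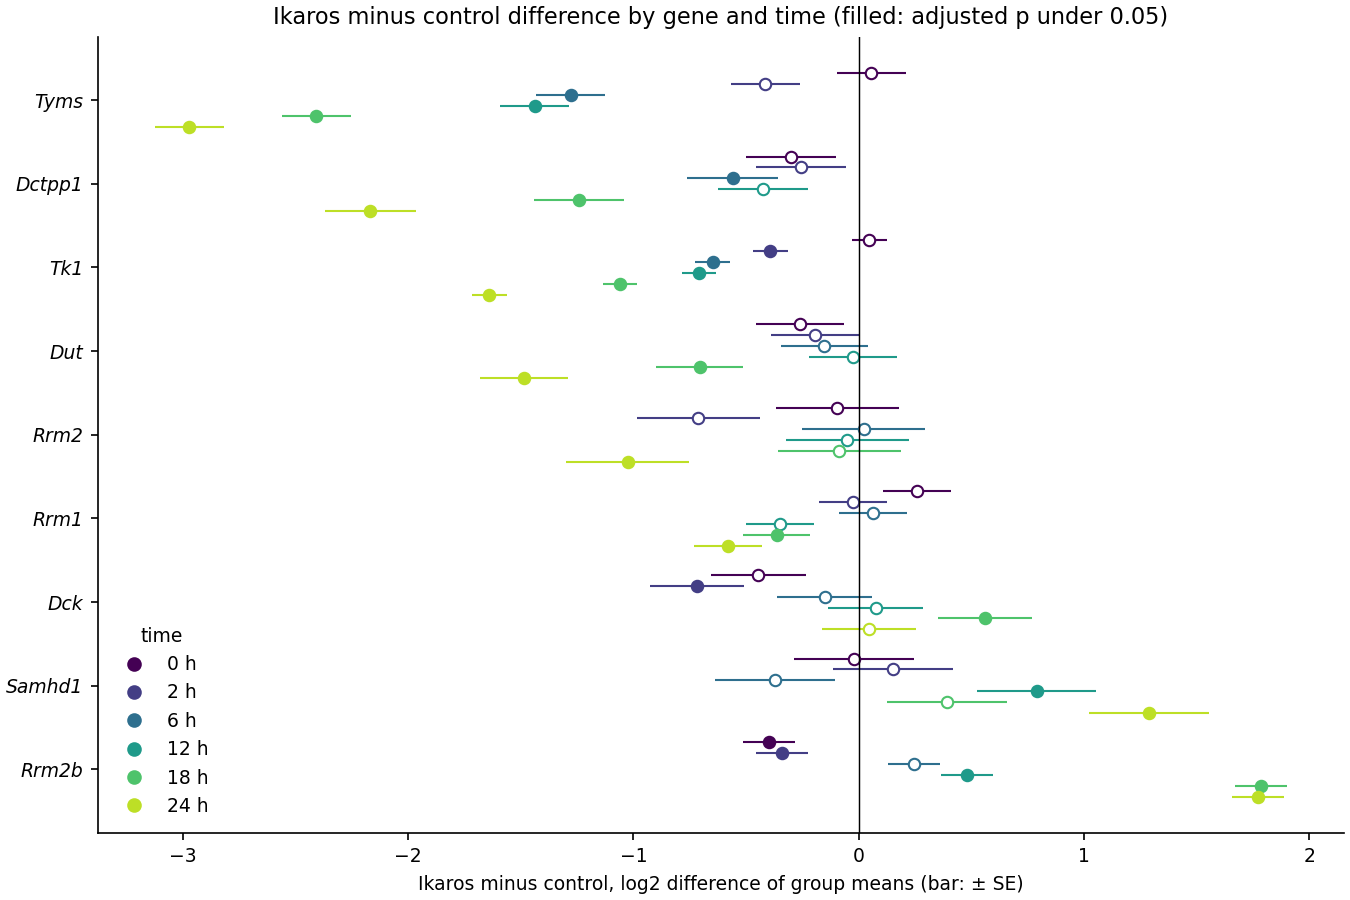
Ikaros minus control difference in log2 units (horizontal axis, with bars of ± SE) for each gene, ordered by its 24 h value, with 1 point per time coloured from dark (0 h) to light (24 h) and filled where the adjusted p was under 0.05. Tyms runs from 0.06 at 0 h to −2.97 at 24 h and Rrm2b from −0.40 to 1.77. Dck runs from −0.45 at 0 h through −0.72 at 2 h and 0.56 at 18 h to 0.05 at 24 h.

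Steps between neighbouring times in Ikaros cells were tested from 2 h on, with no control subtracted. The step from 0 to 2 h was not tested in Ikaros cells alone. Its largest fall among the members was that of Rrm2 (−0.96, SE 0.27, against −0.34 in control cells). Its largest rise was that of Samhd1 (0.46, SE 0.27, against 0.29 in control cells). From 2 to 6 h 2 of the 9 genes were called (Tyms and Rrm2b, 11.2% of all genes called), and from 6 to 12 h only Dck (20.8%). Dck also rose in control cells over that interval. From 12 to 18 h 5 were called, 4 lower and 1 higher (25.5%), namely Tyms, Tk1, Dut and Dctpp1 against Rrm2b. From 18 to 24 h 3 were called, all lower (5.77%), namely Tyms, Tk1 and Dctpp1. With the batch as a replicate block the last step held 6 calls, adding Rrm1 (−0.44, adjusted p 0.0388), Rrm2 (−0.65, adjusted p 0.0472) and Dut (−0.62, adjusted p 0.0415), and that from 6 to 12 h held 2, adding Samhd1 (0.67, adjusted p 0.0393). The 18 to 24 h count was 1 without replicate 1 or replicate 2.

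The libraries of batch 4 stood apart for some members in both lines at 2 to 24 h. In control cells the batch 4 library lay below the mean of the other 2 at all 5 times for Rrm2 (by −0.93 to −0.18) and Dck (by −0.61 to −0.15). It lay above at all 5 times for Samhd1 (0.41 to 1.22), Dut (0.10 to 0.65) and Dctpp1 (0.19 to 0.61). In Ikaros cells Rrm2 was again lower at all 5 times (−0.81 to −0.02), whereas Dck was lower at 2, Samhd1 at 2 and Dut at 2 of the 5. Dctpp1 was lower at 1 of the 5 (−0.23 to 0.56). For Tk1 and Rrm2b the offset was at most 0.19 in size in control cells. In Ikaros cells it ran from −0.14 to −0.01 for Tk1, lower at all 5 times, and from −0.32 to 0.18 for Rrm2b. The part of these offsets in the results was not tested beyond the values without replicate 3 and with the batch as a replicate block.

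Among 23 other genes of deoxynucleotide kinases, deaminases and phosphatases, 21 were measured, and at 24 h 15 were lower, 2 higher and 4 not called, with a median difference of −0.70, where 62.9% of all genes were called. The 2 that rose were Tk2 (1.48, SE 0.08, adjusted p 2.3e-14) and Dguok (0.67, SE 0.21, adjusted p 0.00729), which phosphorylate pyrimidine and purine deoxynucleosides in mitochondria. Tk2 was called higher from 2 h on (0.50, adjusted p 7.4e-05), at times when Tk1, its cytosolic counterpart, was called lower. Dctd, the deaminase that makes dUMP from dCMP upstream of Tyms, read −0.13, −0.98, −1.35, −3.02 and −3.19 from 2 to 24 h (SE 0.17, adjusted p 1.3e-14 at 24 h), the last 4 called. Dtymk, the kinase that follows Tyms and Tk1, was called from 12 h on (−0.75) and read −1.27 (SE 0.16, adjusted p 1.7e-07) at 24 h. Pnp, a purine nucleoside phosphorylase, lay furthest below control at 24 h (−3.34, SE 0.13, adjusted p 2.4e-17) but was already at −0.85 at 0 h (adjusted p 4.6e-05), and its change from 0 to 24 h was −2.49, beside −2.99 for Dctd, and Nme1, a nucleoside diphosphate kinase, read −1.89 (SE 0.18, adjusted p 1.1e-09).

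The folate cycle that serves Tyms was lower as well, with 9 of its 10 genes called at 24 h and a median of −2.01. At that time 62.9% of all genes were called. Shmt1, which loads the one-carbon unit, read −0.45 (adjusted p 0.0276) at 2 h, −0.99, −1.53 and −2.24 at 6, 12 and 18 h, and −2.84 (SE 0.14, adjusted p 3.1e-15) at 24 h. Fpgs, which adds glutamates to folate, read −3.00 (SE 0.14, adjusted p 4.9e-16), and Ggh, which removes them, was the 1 gene not called (−0.13). At 6 h 2 of the 10 were called higher and 3 lower, where 37.3% of all genes were called. Tyms was already 2.42-fold lower at 6 h.

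The other 3 lists of DNA and nucleotide genes are given for scale. De novo purine and pyrimidine synthesis had 16 of 17 genes lower and 1 higher at 24 h, with a median of −1.87, from Atic (−2.23, SE 0.11, adjusted p 2.3e-15) and Gart (−2.23) to Ctps2 (1.58, SE 0.16, adjusted p 1.6e-09). Replication licensing had 14 of 16 lower and none higher, with a median of −0.78, led by Cdc6 (−1.66, SE 0.19, adjusted p 2.7e-08) and Gins1 (−1.48). At 18 h that list had 6 lower and 2 higher, and 8 not called, where 58.2% of all genes were called. Pcna, the sliding clamp, was not called from 2 to 18 h (0.11 at 18 h, adjusted p 0.729) and read −1.24 (SE 0.26, adjusted p 0.00017) at 24 h. Mitosis genes had 10 of 16 lower and 1 higher at 24 h, with a median of −0.29, a share called near the 62.9% of all genes, from Ccnb1 (−1.25, SE 0.14, adjusted p 1.7e-08) and Mad2l1 (−0.91) to Ccnb2 (1.06, SE 0.19, adjusted p 3.2e-05). The median of the 9 deoxynucleotide genes, −1.02, lay between those of licensing and of de novo synthesis. No test of a difference between lists was made.

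**Figure D4:**
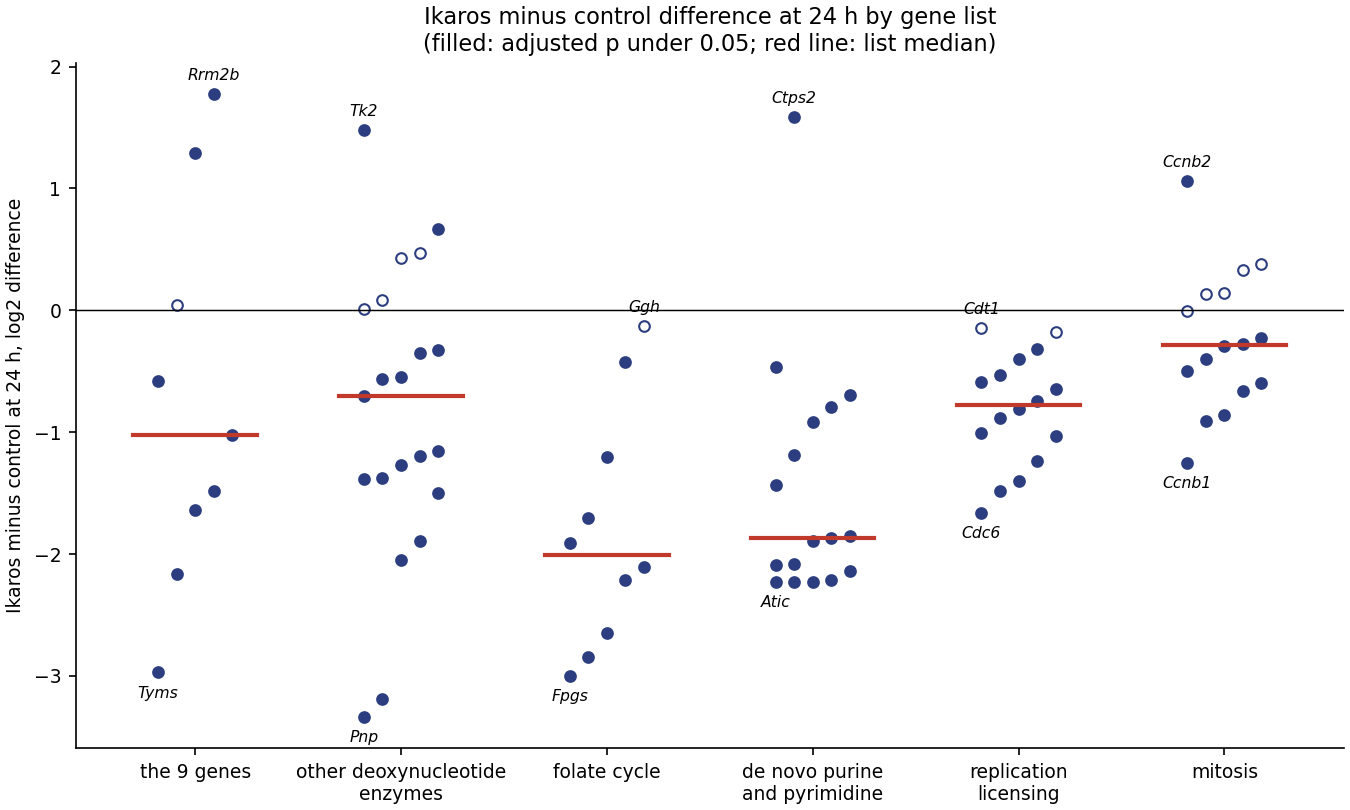
Ikaros minus control difference at 24 h in log2 units (vertical axis) for each measured gene of 6 lists, filled where the adjusted p was under 0.05, with a red line at the list median and the lowest and highest gene named. The medians run from −2.01 for the folate cycle to −0.29 for mitosis, and Rrm2b, Tk2, Ctps2 and Ccnb2 are the highest genes of their lists.

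Genes among the 2 nearest in course to each member were found by the root mean square (RMS) distance between their 6 Ikaros minus control differences and those of the member. They were Them6 (0.15) and Timm9 (0.16) for Tyms, Chchd10 (0.08) and Man2c1 (0.13) for Tk1, and Psmg4 (0.10) for Dut. For the reductase they were Whsc1 (0.06) and Ppp1r7 (0.09) for Rrm1, E2f7 (0.12), an E2F family repressor, and Nupl1 (0.16) for Rrm2, and Abhd17c (0.16) for Rrm2b. For the rest they were Fstl1 (0.16) and Pcdhb22 (0.17) for Dck, Wdr45 (0.16) and Tmem80 (0.18) for Samhd1, and Fgfbp3 (0.08) and Alad (0.10), an enzyme of haem synthesis, for Dctpp1. E2f7 read −0.66 at 2 h, 0.18 at 6 h and then −0.82 at 24 h, where Rrm2 read −0.71, 0.02 and −1.02. Over so many genes some match closely in any case, and the distances describe likeness over 6 times.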

How the data were processed

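The authors trimmed the reads, aligned fragments to mm10 with TopHat2 (unique best hit), counted them per gene with HTSeq, used cqn to correct for gene length and GC content, and applied a non-parametric ComBat for library preparation. Tool versions are not given in the sources used here. The deposited values are log2 expression, as cqn builds them, shifted so that the lowest value is 1. The file does not state the base, and folds assume base 2. The table holds no counts, and the read totals that the study lists were not used here, so no counting error is given. Adjustment before deposition may make standard errors too small.

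A limma model (limma 3.58.1, R 4.3.3) was fitted to all 12762 genes as 12 group means over 36 libraries, two-sided, with Benjamini-Hochberg adjustment over all genes and calls at an adjusted p under 0.05. The methods of the study give no such test. Rrm2 minus Rrm2b was tested by exact permutation. The fit was tested on simulated data, but no result of that test is given or relied on here. Positions are from GENCODE M21 on GRCm38 (mm10), with all 9 genes matched by Ensembl identifier.

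Alternatives were quantile normalization, trend and robust eBayes, a filter that drops genes below the 25th percentile in mean level (9571 genes, with all 9 members), only the groups compared, each replicate number left out, and the batch as a replicate block, also with separate 0 h blocks. The labels give shared batch numbers, so these pair Ikaros with control libraries. Deviations from the group means of same-batch libraries correlated at −0.06 to 0.51 over 18 pairs (median 0.13, 12 pairs above 0.1).

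The members and lists were chosen with earlier results of these data known. Named were all members, 8 fixed pathway genes whatever their values, the 2 largest rises and 2 largest falls at 24 h of each list among called genes whose groups did not overlap, and the 2 genes nearest to each member in course. Some genes that this rule names are not reported here.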

Additional observations from a re-analysis of the deposited data

Results flagged for a closer look

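The response of the Ikaros minus control difference to time was itself tested. Of the 9 genes, 8 passed limma's F test over the 5 changes from 0 h, as did 59.8% of all genes. Leaving out a replicate number gave 5 to 9 of the 9. A pass marks a gene as differing between time points. The change from 0 to 24 h was −3.03 for Tyms (F test adjusted p 2.1e-11), −1.87 for Dctpp1 (6.7e-06), −1.69 for Tk1 (2.1e-11), −1.22 for Dut (0.00042) and −0.84 for Rrm1 (0.0108). It was 2.17 for Rrm2b (2.5e-12) and 1.31 for Samhd1 (0.00564). Dck passed the F test (0.00963), although its change from 0 to 24 h of 0.49 did not pass by itself (adjusted p 0.18), and passed with only the groups compared in the fit (0.0455). Without replicate 2 the change of Rrm1 was −0.74 and not called (adjusted p 0.115). The change of Dck was largest at 18 h, at 1.01 (adjusted p 0.00746). The 0 h cultures were collected apart from the others, so culture occasion and drug cannot be told apart in these changes. From 2 to 24 h, where both ends had the drug, the change was called for the same 8 genes, Dck included (0.76, adjusted p 0.0368). It was called for 47.3% of all genes. Groups of 3 were not searched for single outlying libraries.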

How the results depend on the processing

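With only the groups compared in the fit, no member was called at 0 h, at 2 h, for the change from 0 to 2 h, or for the Ikaros steps from 2 to 6 h and 6 to 12 h (0 each, against 1, 3, 1, 2 and 1). It also lost Dctpp1 at 6 h (adjusted p 0.0756), Rrm1 at 18 h (0.121), Tk1 from 12 to 18 h (0.0521) and Tyms (0.0686) and Dctpp1 (0.0658) from 18 to 24 h, and gained Rrm1 (0.0391) and Samhd1 (0.0318) from 18 to 24 h and the change of Dck from 0 to 24 h (0.0455). With the batch as a replicate block the step from 6 to 12 h had 2 calls (3 with separate 0 h blocks) and that from 18 to 24 h had 6 (6). The block added 7 member calls (8 with separate blocks, where Rrm2 from 6 to 12 h was the extra one, adjusted p 0.0267), and took none away among the comparisons followed gene by gene, namely those at the 6 times, the change from 0 to 24 h and the 4 Ikaros steps, where it changed no other call. Leaving out each replicate number in turn gave 0 calls at 0 h, 0 to 4 at 2 h, 2 to 6 at 12 h, 0 for the change from 0 to 2 h, 5 to 8 for the changes from 0 to 24 h and from 2 to 24 h, 5 to 9 for the F test, and 0 to 1, 3 to 4 and 1 to 4 for the Ikaros steps from 6 to 12, 12 to 18 and 18 to 24 h. The calls at 24 h of Tyms, Rrm2, Rrm2b, Tk1, Dut, Samhd1 and Dctpp1 held in each fit. Without replicates 1, 2 and 3 the number of called members moved beyond a set ratio in 8, 8 and 2 comparisons. The number called among all genes moved so in 12, 16 and 2. With only the groups compared these were 5 for the members and 8 for all genes, and with the batch as a replicate block 2 and 1. Signs turned in 18 differences, none of them called, and only on leaving out a replicate number: Samhd1 at 0 h (−0.072 to 0.0577), Dut at 2 h (−0.32 to 0.0339), 6 h (−0.37 to 0.0637) and 12 h (−0.12 to 0.10), Rrm1 at 6 h (−0.0933 to 0.16), Rrm2 at 6 h (−0.0369 to 0.0543), 12 h (−0.26 to 0.20) and 18 h (−0.18 to 0.0521), and Dck at 12 h (−0.18 to 0.21) and 24 h (−0.0865 to 0.21). Among the Ikaros steps they were Rrm1 (−0.0737 to 0.0775), Dut (−0.0588 to 0.28) and Samhd1 (−0.31 to 0.16) from 2 to 6 h, Dut (−0.25 to 0.17) and Dctpp1 (−0.17 to 0.11) from 6 to 12 h, Rrm1 (−0.12 to 0.0741) and Samhd1 (−0.0731 to 0.0217) from 12 to 18 h, and Rrm2b (−0.0021 to 0.21) from 18 to 24 h. Those fits held fewer libraries, and the cause of the turned signs was not tested. Trend and robust eBayes took away the call of Rrm2b at 2 h (adjusted p 0.0543) and added Tyms at 2 h (0.0495) and Dut from 18 to 24 h (0.0433), and the percentile filter added the last as well (0.0384). Quantile normalization changed no member call. With no counts in the table, the 3 libraries per group set the precision.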
